A study of Mus musculus with 2 samples.

Results

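The binding of Rfx6 was examined in Min6b1 cells, an insulin-secreting line of mouse β cells. It was examined at 42 genes of the primary cilium and its intraflagellar transport machinery, among them Foxj1, a transcription factor that directs motile cilia. The genes were taken by name from a list of ciliary genes, which are classical targets of RFX transcription factors. The list was chosen with earlier results of these data known. All 42 symbols were found among the 22367 protein-coding genes of the GENCODE M1 annotation of the mm9 (NCBIM37) mouse genome. The 3HA-Rfx6 library was an anti-HA (12CA5) ChIP-seq of Min6b1 cells transfected with 24 μg of the plasmid pCMV-Tag2A-3HA-Rfx6 and harvested 2 days later, and the control library was an anti-HA ChIP-seq that the labels assign to Min6b1 cells, both grown in 25 mM glucose. The label of the control names no plasmid, whereas the growth text shared by both libraries describes the transfection, so whether the control cells received a plasmid is not given in the sources used here. The tagged protein was expressed from a transfected plasmid in cells of a line, its level was not measured here, and the precipitated protein is the tagged one and not the Rfx6 of the cell itself.

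There was 1 library per condition, so the values have no replicate error and no test was made between conditions. The 3HA-Rfx6 library held 49443917 reads of 50 bases, of which 33949757 remained after 1 read per position was kept, against 3567375 of 16911298 in the control. The peak list holds 23308 peaks. Each peak has its number of 3HA-Rfx6 reads, its fold enrichment over a background modelled by the peak caller, a score and an FDR. Peaks are placed here by the summit, the position of highest signal.

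The primary cilium is an antenna-like projection on most cells, including β cells, that gathers receptors of Hedgehog and other signals. It is built by intraflagellar transport (IFT), in which trains of IFT-B proteins move cargo to the tip with kinesin motors and trains of IFT-A proteins return it with a dynein motor. The BBSome moves membrane proteins along these trains, and the transition zone at the base acts as a gate. RFX factors bind the X-box, a sequence of a pair of inverted arms with a few bases between them, and RFX proteins activate ciliary genes through X-boxes near their starts from worms to mammals.

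Peaks lay on the starts of most of the ciliary genes. For 26 of the 42 genes a summit fell within 1 kb of a protein-coding start, which is 61.9% (95% Wilson interval 46.8 to 75%, which covers counting error only), while 22.5% of the other protein-coding genes had one. Within 100 bp of a start, 16 of the 42 genes (38.1%) had a summit, against 5.31% of the other genes. Most of the excess within 1 kb lay in this closest range. The nearest summit was over 100 bp and up to 1 kb from a start for 10 genes (23.8%), against 17.2% of the other genes, and over 1 kb and up to 10 kb from it for 1 gene (2.38%), against 15% of the others. Genes were counted in 1 library and are not replicates, so these shares are a description with no test.

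Farther from the starts, the ratio to other genes was smaller. Within 10 kb of a start, 27 genes (64.3%) had a summit, against 37.5% of the other genes. Within 50 kb of the gene, 39 genes (92.9%) had a summit, against 67.8%. A background of 67.8% leaves little room above it, so the ratio is bounded there. Its fall with distance therefore does not show that the difference fades. The ciliary genes are long, with a median length of 46.3 kb against 15.4 kb, so each was also set beside the 200 protein-coding genes nearest to it in length. Of these length neighbours, 6.49% had a summit within 100 bp of a start, 28.3% within 1 kb, 42.05% within 10 kb and 75.5% within 50 kb of the gene. At these rates 11.9 of the 42 genes would have a summit within 1 kb and 31.7 within 50 kb. When summits within 1 kb of a start of the gene itself were left out, 36 genes (85.7%) still had one within 50 kb, against 70.8% of the length neighbours. Summits at the starts of neighbouring genes were kept in this count, so it does not measure summits away from all starts.

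**Figure D1:**
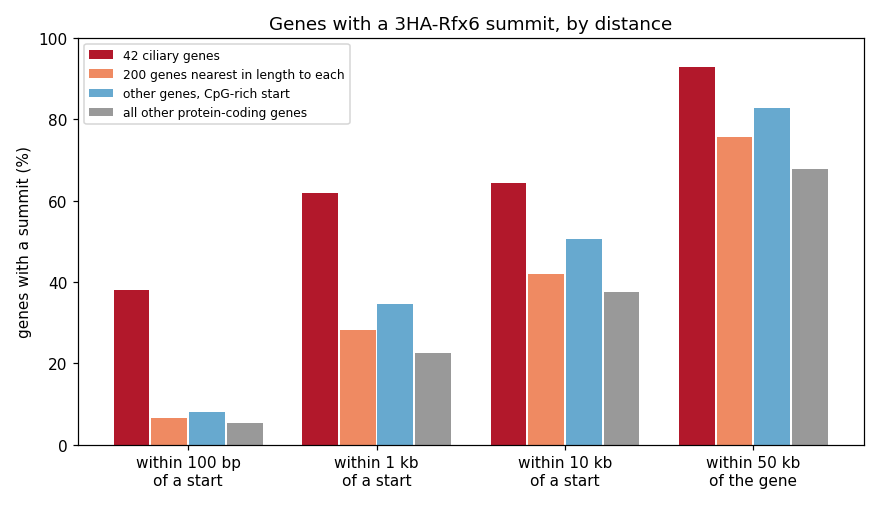
Share of genes (%) with a 3HA-Rfx6 summit at 4 distances, for the 42 ciliary genes, the 200 genes nearest in length to each of them, the other genes with a CpG-rich start and all other protein-coding genes. The ratio of the ciliary genes to all other genes is largest within 100 bp of a start (38.1% against 5.31%) and smallest within 50 kb of the gene (92.9% against 67.8%). The ratio is bounded where most other genes have a summit, so its fall does not show that the difference fades.

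Starts rich in CpG dinucleotides hold more summits in general, and most ciliary genes have such a start. A start was called CpG-rich when the 300 bp around it had a GC content of at least 50% and an observed to expected CpG ratio of at least 0.6, which held for 37 of the 42 genes (88.1%) and for 54.1% of the others. Among the 37 genes, 22 (59.5%) had a summit within 1 kb, against 34.6% of the 12073 other genes with a CpG-rich start. Within 100 bp the share of these other genes was 8.1%. The 38.1% given above for this distance covers all 42 ciliary genes and not only these 37. A protein-coding gene on the other strand started within 1 kb of a start of 11 ciliary genes (26.2%) and of 11.3% of the others. Of these 11 genes, 7 (63.6%) had a summit within 1 kb, against 35.7% of the other genes with a shared start. Among genes with both a shared start and a CpG-rich start, 7 of 10 ciliary genes had a summit within 1 kb, against 37.3% of the others. The 7 genes and their partners were Ift20 with Tnfaip1 (29 bp between the starts), Ift122 with Mbd4 (99 bp), Dync2h1 with Dcun1d5 (120 bp), Nphp4 with Kcnab2 (271 bp), Arl3 with Sfxn2 (280 bp), Tmem67 with C430048L16Rik (579 bp) and Ift140 with Cramp1l (861 bp). The partner was sought at any start of a gene, so the shared start need not be the start under the peak. The peak of Arl3, which has 1 start, and that of Nphp4, 24 bp from a start of Kcnab2, cannot be assigned to the ciliary gene alone. For the rest of the 7 the assignment was not settled.

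**Figure D2:**
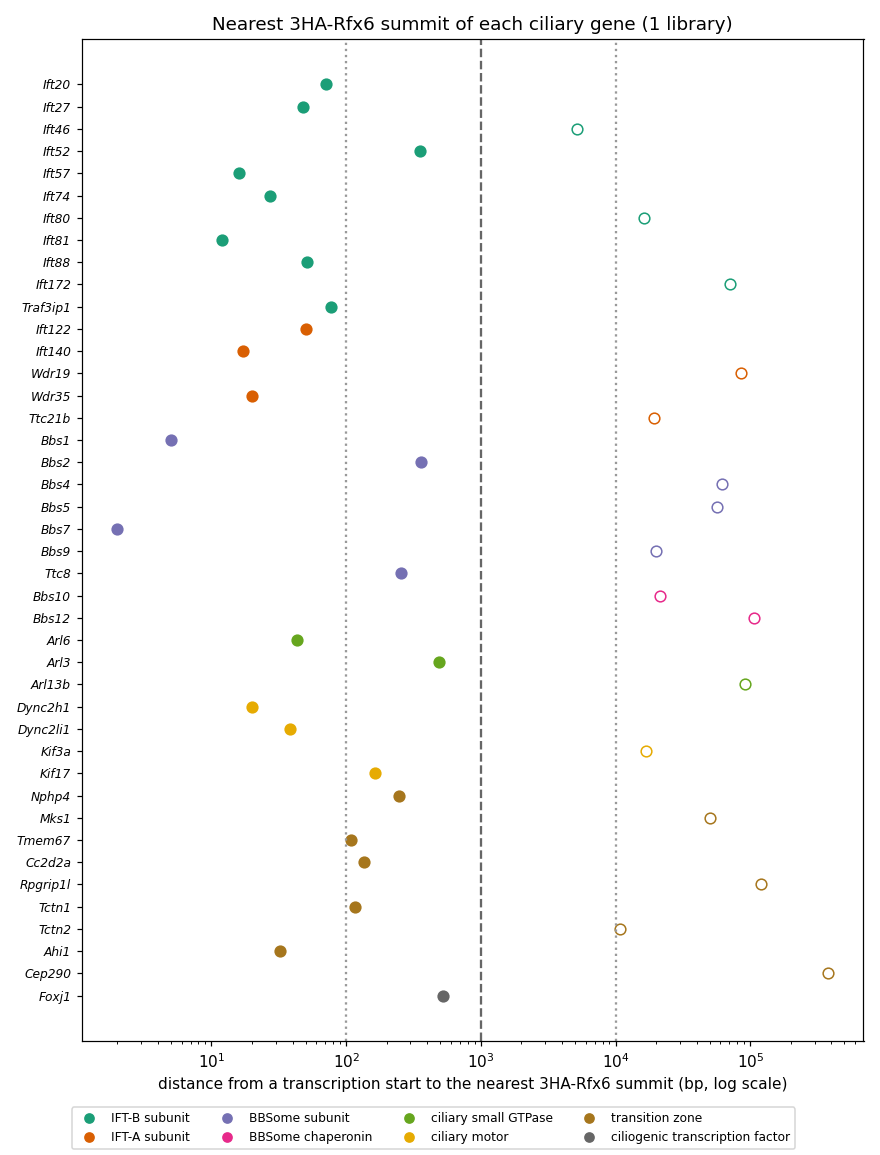
Distance in bp (log scale) from a protein-coding transcription start of each of the 42 ciliary genes to the nearest 3HA-Rfx6 summit, with genes in rows and roles in colours. Filled points are within 1 kb (dashed line) and open points are beyond it, and dotted lines mark 100 bp and 10 kb. Only Ift46 falls between 1 kb and 10 kb, so the points form a group near the starts and a group far from them.

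The 26 start peaks were not higher than start peaks elsewhere. They held 36 to 355 reads with a median of 84, and the 4876 peaks within 1 kb of other protein-coding starts had a median of 82. The median fold enrichment was 9.52 (4.47 to 59.55), against 8.94 at other starts. Above the median reads of the other start peaks lay 13 of the 26. Their FDR was between 1.85 and 12.9% and at most 5% for 22 of them, but it did not fall with the score: the highest score (2453.28, Ift20) had the FDR of 12.9% and the lowest (55.9, Ift88) that of 1.85%. The place of the summit differed more, with a median distance from the start of 50.5 bp, against 256 bp in the other start peaks. Upstream of the start were 16 of the 26 summits and at or after it were 10.

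**Figure D3:**
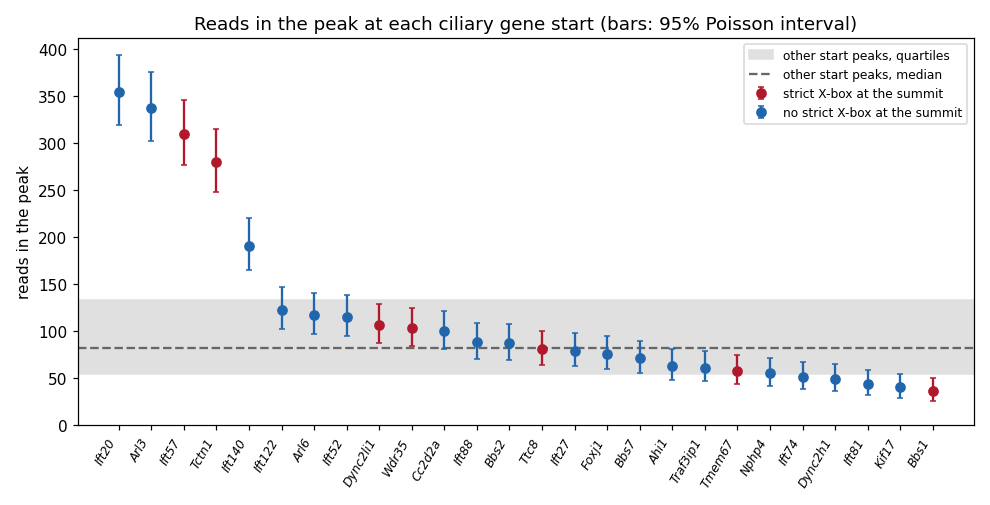
Reads in the peak nearest to a start for the 26 ciliary genes with a summit within 1 kb, in falling order, with 95% Poisson intervals that cover counting error only. The grey band and the dashed line are the quartiles (54 to 133 reads) and the median (82 reads) of the 4876 other start peaks, and red points are peaks with a strict X-box within 100 bp of the summit. Ift20, Arl3, Ift57, Tctn1 and Ift140 lie above the band.

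X-boxes were searched within 100 bp of each summit in 2 ways, on both strands. The strict X-box pattern allows some changes in each arm and 0 to 3 bases between the arms. The best match counts how many of the 12 positions of the arms GTTGCC and GGCAAC are met, with 0 to 3 bases between them. A strict X-box was present in 7 of the 26 start peaks of the ciliary genes (26.9%, 95% Wilson interval 13.7 to 46.1%), namely those of Ift57, Wdr35, Bbs1, Ttc8, Dync2li1, Tmem67 and Tctn1. In the other start peaks the share was 5.64%, and in windows moved 1 kb rightwards from those it was 0.144%. Because the ciliary genes were listed as classical targets of RFX factors, shares of X-boxes at their peaks are not independent of the list. A relaxed X-box pattern, with looser arms but not covering every strict X-box, was found at 17 of the 26 (65.4%), against 39.7%. The peak of Tmem67 had the strict X-box and not the relaxed one. The sequences are shown here because they are the candidate Rfx6 sites at ciliary starts. Each is 30 bases of the mm9 genome on the strand of the gene, 5′ to 3′, with the X-box in capitals.
Dync2li1, chr17:85025785-85025814, plus strand: gtgacgtcGTTGCCATGGCAACcgaggagc
Tctn1, chr5:122714412-122714441, minus strand: ctgtgactGTTGCCCGGGCAACagacgggc
Ift57, chr16:49699312-49699341, plus strand: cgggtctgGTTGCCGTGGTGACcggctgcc
Ift57, chr16:49699339-49699368, plus strand: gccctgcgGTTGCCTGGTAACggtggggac
Wdr35, chr12:8980839-8980868, plus strand: cggcggtgGTTGCCAGGCGACgggagcttc
Bbs1, chr19:4906605-4906634, minus strand: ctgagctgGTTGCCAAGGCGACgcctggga
Ttc8, chr12:100158514-100158543, plus strand: accggatgGTTGCTAGGCAACtgcatctct
Tmem67, chr4:12015208-12015237, minus strand: cgtgcgtgGTAACCTAGCAACcaggcgtcg

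Dync2li1 and Tctn1 carry both arms without a change, with 2 bases between them, and so matched 12 of 12 positions. The complete match occurred at 2 of the 26 summits (7.69%) and at 0.964% of the others near starts. At least 11 positions were matched at 8 of the 26 (30.8%), against 4.51% of the other start peaks, and at least 10 at 11 of them (42.3%), against 17.7%. In windows moved 1 kb rightwards, at least 10 positions were matched for 0 of the 26 and for 2.5% of the others. Ift52 and Bbs7 are the peaks with 11 of 12 positions whose sequence was outside the strict pattern.
Ift52, chr2:162842722-162842751, plus strand: tgtttcccGTTTCCATGGCAACcgttggcc
Bbs7, chr3:36512411-36512440, minus strand: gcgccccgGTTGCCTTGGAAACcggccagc

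**Figure D4:**
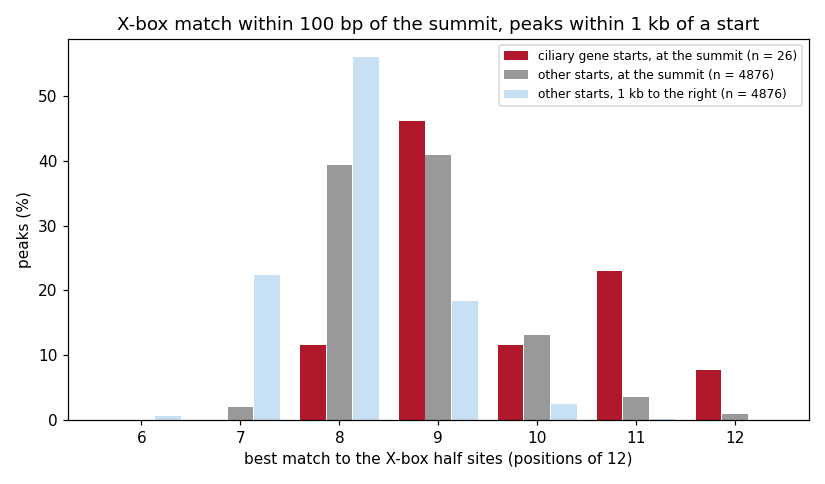
Best match to the X-box arms (positions of 12) within 100 bp of the summit, as the share (%) of the 26 start peaks of ciliary genes and of the 4876 other start peaks, and in windows moved 1 kb rightwards from the latter. Matches of at least 11 made up 30.8% of the ciliary peaks, 4.51% of the other start peaks and 0.103% of the moved windows. The ciliary genes were listed as targets of RFX factors, so their share is not independent of the list.

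Among the IFT-B genes, whose products form the train that carries cargo to the ciliary tip, 8 of 11 had a summit within 1 kb and 7 had it within 100 bp. Ift20 (ENSMUSG00000001105.9), whose product links the Golgi to the cilium, had the highest start peak of all ciliary genes. It extended from 78349305 to 78350924 on chromosome 11 with its summit at 78350016, in a 5′ untranslated exon 71 bp after the start of Ift20-002. It held 355 reads (95% Poisson interval 319 to 394) and had a fold enrichment of 58.4, and 1.45% of all peaks held at least as many reads. Its best match was 9 of 12, and a start of Ift20 lay 29 bp from a start of Tnfaip1.

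Ift57 (ENSMUSG00000032965.4) had a peak of 310 reads (276 to 347) and a fold enrichment of 59.55, the highest of the 26. Its summit, at 49699330 on chromosome 16, was 16 bp before the start and lay inside the first of the 2 X-boxes shown above. The X-boxes were centred 19 bp before and 7 bp after the start. The Poisson intervals of Ift20 and Ift57 overlap, so their order in reads is within the counting error.

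The other IFT-B peaks were lower. Ift52 had 115 reads and a fold enrichment of 13.9 at a summit 354 bp before its start, which fell inside the X-box-like sequence given for it. Ift88, a core subunit whose loss removes cilia, had 88 reads, but its fold enrichment of 5.16 and its score of 55.9 were near the cutoff of the list, where the lowest score is 50.01. Ift27 had 79 reads, Traf3ip1 had 61, Ift74 had 51 and Ift81 had 44, and these summits were 12 to 77 bp from the start. Ift46 had its nearest summit 5.20 kb before a protein-coding start, in a peak of 86 reads that was 105 bp from a start of Arcn1. The gene record of Ift46 begins before its protein-coding starts, 0.168 kb from this summit. Ift80 and Ift172 had no summit within 10 kb of a start.

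Of the IFT-A genes, whose products serve the return transport, 3 of 5 had a summit within 100 bp. Ift140 had 191 reads (165 to 220) and a fold enrichment of 11.6, with the summit in a 5′ untranslated exon 17 bp after the start. Ift122 had 123 reads at a summit 50 bp after a start, and a start of Ift122 was 99 bp from a start of Mbd4. Wdr35 had 103 reads and a fold enrichment of 13.2 at a summit 20 bp after its start, and its X-box ended 14 bp from the summit. Wdr19 and Ttc21b had no summit within 10 kb of a start.

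The BBSome is the complex of Bardet-Biedl syndrome proteins. Of its 7 genes, 4 had a summit within 1 kb, with 36 to 87 reads. Bbs2 had 87 reads at 362 bp after its start, and Ttc8 had 81 reads at 257 bp before it, where the summit fell inside the X-box. Bbs7 had 71 reads with the summit 2 bp from the start, the shortest distance of all. Bbs1 had 36 reads (25 to 50), the fewest of the 26, at a summit 5 bp before its start, and 97.7% of all peaks held at least as many. This lowest peak nevertheless had an X-box with 11 of 12 positions, 6 bp from the summit. That was a better match than the one at Ift20, the highest peak. Among the 26 start peaks, however, median reads were 103 with a strict X-box (36 to 310) and 79 without one (40 to 355). The median fold enrichments were 13.2 and 8.47. In the other start peaks the medians were 92 and 81 reads, with fold enrichments of 12.2 and 8.71. These differences were not tested. Bbs4, Bbs5 and Bbs9 had no summit within 10 kb of a start, and neither did Bbs10 and Bbs12, which encode chaperonin-like proteins that assemble the BBSome.

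Among the small GTPases, Arl3 and Arl6 had a start peak and Arl13b did not. Arl3, which releases lipidated cargo in the cilium, had 338 reads (303 to 376) and a fold enrichment of 32.3. Its summit, at 46647090 on chromosome 19, was in an intron 485 bp after the start, where the best match was 8 of 12. A strict X-box of Arl3 lay 496 bp from that summit, centred 18 bp before the start. Arl6, which recruits the BBSome to membranes, had 117 reads at a summit 43 bp before its start, with a best match of 9.
Arl3, chr19:46647578-46647607, minus strand: cgcagcaGTTACCCCTGGTAACgggggagg

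Among the motor genes, 3 of 4 had a start peak. Dync2li1, a light intermediate chain of the dynein of return transport, had 107 reads (88 to 129) and a fold enrichment of 21.9, with the summit at 85025798 on chromosome 17, inside its complete X-box and 38 bp before the start. Dync2h1, the heavy chain of the same dynein, had 49 reads at 20 bp before a start. Dcun1d5 began 120 bp from a start of Dync2h1, but Dync2h1 has 4 starts and this need not be the start under the peak. For Kif17, a kinesin of the ciliary tip, the peak nearest to a start had 40 reads at 164 bp before the start of Kif17-001. Another of 139 reads lay 647 bp after the start of Kif17-002 and nearer, at 618 bp, to a start of Sh2d5. Kif17 also had 3 higher peaks of 210, 201 and 194 reads over 24 kb from its starts, 2 of them with the summit in a coding exon. Kif3a, the motor subunit of the kinesin that drives outward transport, had its nearest summit 16.9 kb from a start with 32 reads.

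Of the 9 transition zone genes, 5 had a start peak, and 1 of these, at Ahi1, was within 100 bp. Tctn1 (ENSMUSG00000038593.10), a tectonic protein of the gate, had 280 reads (248 to 315) and a fold enrichment of 28.0. Its summit, at 122714352 on chromosome 5, was in a coding exon 117 bp after the start, and its complete X-box was 68 bp from the summit in the 5′ untranslated exon. Cc2d2a had 100 reads, Tmem67 had 58 and Nphp4 had 55, at 135, 108 and 247 bp before the start. The summit at Nphp4 was 24 bp from the start of Kcnab2 on the other strand, nearer than to Nphp4 itself. Ahi1, mutated in Joubert syndrome, had 63 reads at 32 bp after its start, and a strict X-box with 11 of 12 positions was 110 bp from the summit, just outside the window searched. Kif17 had the same arrangement, with an X-box of 11 of 12 positions 110 bp from the summit.
Ahi1, chr10:20672366-20672395, plus strand: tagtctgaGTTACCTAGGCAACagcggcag
Kif17, chr4:137818085-137818114, plus strand: tcacggagGTTGCCCAGCAACggcgaacgc

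Foxj1, the transcription factor that directs motile cilia, had 76 reads and a fold enrichment of 6.74 at a summit 522 bp before its start, the longest distance among the 26.

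The remaining 16 genes had no summit within 1 kb of a start. Of these, Ift46 was the one with a summit within 10 kb, 12 had one within 50 kb of the gene and 3 (Bbs12, Mks1 and Cep290) had none. The nearest summit to the gene was 50.7 kb away for Mks1, 97.6 kb for Bbs12 and 292 kb for Cep290. By reads, the 5 highest of these genes were Rpgrip1l with a peak of 267 reads and a fold enrichment of 53.9, Bbs9 with 158 reads, Ift46 with 106, Wdr19 with 103 and Ift80 with 96. The peak of Rpgrip1l, with its summit at 93694971 on chromosome 8, lay beyond the end of the gene, and the nearest protein-coding start was that of Aktip at 36607 bp. Several of the peaks counted for these genes were at the starts of neighbours, at 224 bp from a start of Tmem25 for Ift46, at 165 bp from one of Ppm1g for Ift172, at 116 bp from one of Adpgk for Bbs4 and at 273 bp from one of Atp6v0a2 for Tctn2. A count within 50 kb therefore does not tie a peak to the ciliary gene.

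X-boxes at the starts themselves gave a measure that did not use the peaks. The genes were listed as classical targets of RFX factors, so a raised share of X-boxes is not independent of the list. The shares were not set beside genes with CpG-rich starts. A strict X-box lay within 200 bp of a start in 10 of the 42 genes (23.8%), against 2.03% of the other protein-coding genes, and within 1 kb in 12 genes (28.6%), against 4.65%. Of these 12 genes, 11 had a summit within 1 kb of a start: the 7 with the X-box at the summit, Ahi1, Kif17 and Arl3, and Cc2d2a, whose X-box was 9456 bp from its summit, at another start. Of the other protein-coding genes with such an X-box 47.9% had a summit there, and of those without one 21.3% had. With the X-box within 200 bp, 9 of the 10 ciliary genes had a summit, against 55.8%. The exception was Tctn2, a tectonic protein like Tctn1, which had a strict X-box centred 55 bp before its start and its nearest summit 10.9 kb away. Mks1, a transition zone protein, had 11 of 12 positions 17 bp before its start, outside the strict pattern, and no summit within 50 kb. They are shown as the only strict X-box (Tctn2) and the highest best match (Mks1) near starts without a peak, where Ift172, Bbs4, Bbs5 and Kif3a matched 10 positions, as Tctn2 did.
Tctn2, chr5:125048688-125048717, plus strand: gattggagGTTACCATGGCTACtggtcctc
Mks1, chr11:87666685-87666714, plus strand: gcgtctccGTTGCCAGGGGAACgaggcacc

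A best match of at least 10 within 200 bp of a start was present in 20 of the 42 genes (47.6%), against 11.4% of the other genes, and within 1 kb in 30 (71.4%), against 30.3%. Of the 16 genes without a start peak, 6 had such a match, and of the 26 with one, 14 had. A sequence like the X-box was therefore present at starts with and without a peak. Of the 26 genes with a start peak, 12 had no match of 10 or more positions within 200 bp of a start. This count is made around starts and not summits. The match at a summit could lie farther from the start, at 256 bp for Ttc8, 353 bp for Ift52 (11 positions each) and 384 bp for Bbs2 (10 positions). The list stops at the cutoff of the peak caller, so binding too weak for the depth of this library was not detectable.

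Summits over 1 kb from the starts of a ciliary gene but within 50 kb of that gene numbered 88, with 31 to 339 reads and a median of 76.5. They include summits at the starts of other genes, such as 3 bp from a start of P2rx7 and 15 bp from a start of Sgk2. Of the 88, 4 (4.55%) had a strict X-box, against 6.44% of all peaks. One of the 4 was 5.81 kb beyond the end of Ttc21b, with 75 reads and 11 of 12 positions. The highest of the 88, with 339 reads and a fold enrichment of 33.2, was in an intron of Nphp4, 27.4 kb from a start. Next came a peak 22.4 kb upstream of Bbs7 with 297 reads and a fold enrichment of 58.9, and neither had a strict X-box.

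Other genes of the cilium and of its signals were counted in the same way. Of 47 further primary cilium genes 23 (48.9%) had a summit within 1 kb of a start, of 28 motile cilium genes 13 (46.4%) and of 15 Hedgehog pathway genes 8 (53.3%), against 22.5% of the genes outside the 42. Within 100 bp the shares were 21.3%, 32.1% and 13.3%, against 5.31%. Among genes with a CpG-rich start, 22 of 41, 8 of 15 and 6 of 10 had a summit within 1 kb, in the same order of lists. Of the genes outside the 42 with such a start, 34.6% had one. The Hedgehog genes signal through the cilium and do not build it, and 2 of their 8 start peaks were within 100 bp. These lists hold few genes, and the differences among them were not tested.

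**Figure D5:**
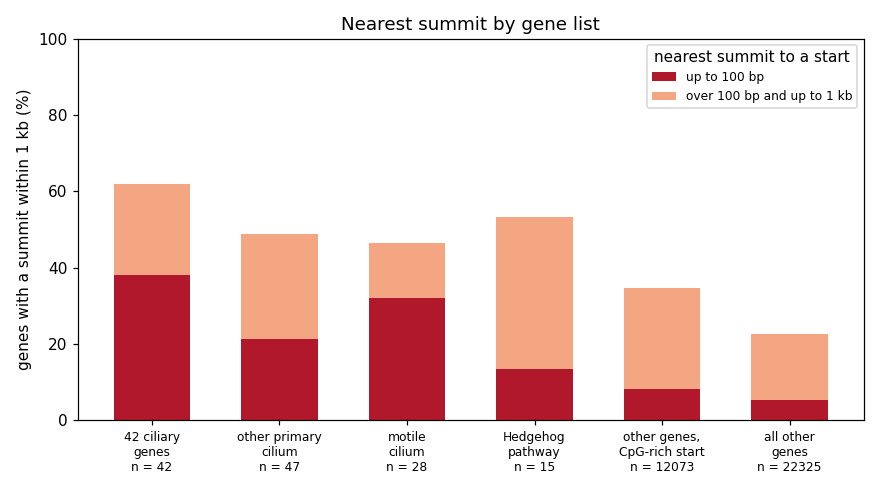
Share of genes (%) whose nearest 3HA-Rfx6 summit was up to 100 bp (dark) or over 100 bp and up to 1 kb (light) from a protein-coding start, for the 42 ciliary genes, 3 other lists and other genes. The dark part is 38.1% for the ciliary genes, 32.1% for motile cilium genes, 13.3% for Hedgehog genes and 5.31% for all other genes.

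A summit within 1 kb and a strict X-box at it were both present for 5 of the further primary cilium genes. Tctn3, the third tectonic gene, had 176 reads and a fold enrichment of 25.2, with its summit nearer to the start of Entpd1. Wdpcp had 118 reads at a start shared with Mdh1, Fuz had 105, Cep41 (listed as Tsga14) had 76 and Lztfl1, a regulator of the BBSome, had 56. Cep41 and Lztfl1 had complete X-boxes. Of the motile cilium genes, Dnaic2 had 185 reads, Dnaic1 133 and Ccdc40 88, each with a strict X-box and a summit at most 27 bp from the start. Dnaic1 had a start within 1 kb of one of 2310028H24Rik, and Ccdc40 within 1 kb of one of Tbc1d16. A strict X-box within 200 bp of a start was present in 9 motile cilium genes, of which 4 had a summit within 1 kb. For the further primary cilium genes it was 5 of 5, and for other protein-coding genes 55.8%. Dnaic1 and Dnaic2 encode intermediate chains of the outer dynein arm, a part of motile cilia.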

How the data were processed

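Per the file header and the labels, reads were mapped to mm9 and the authors used MACS 1.4.2 to call peaks, keeping 1 read per position and a p-value cutoff of 1e-05. The submitters' processing notes also name CASAVA 1.8.2 and Bowtie. For each peak the authors deposited the 3HA-Rfx6 read count, the fold enrichment as a ratio to the modelled background, a score (10 times the negative log10 of its p-value) and the FDR as a percent. The control entered only through this calling, and its retained depth was 9.52 times lower.

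Summits were compared with starts of protein-coding transcripts of GENCODE M1 (NCBIM37), and X-boxes were searched in that genome. Chromosome names and lengths were checked against the peaks. Wilson intervals describe shares of genes or peaks and Poisson intervals describe reads. The members and lists were chosen with earlier results of these data known. Every ciliary gene with a summit within 1 kb is named, with the 5 highest of the rest, those without a summit, and listed genes with a strict X-box at a start peak, of which 1 is not reported here. The remaining members, and neighbours of peaks, are named to account for all 42 and were chosen after their values were seen. Of the other 92 listed genes, 90 matched, 10 of them by an older RefSeq symbol. Searches and counts used Python 3.11.15 with pandas 2.3.3, numpy 2.4.6 and scipy 1.17.1, plots matplotlib 3.10.9, and the searches were tested on simulated data.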

Additional observations from a re-analysis of the deposited data

How the results depend on the processing

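No paired analysis was possible because each condition has 1 library, and no replicate could be left out. With the 50% of peaks with the highest scores, 16 of the 42 genes had a summit within 1 kb of a start and 17 within 10 kb, against 13.2% and 23.1% of the other genes. With a fold enrichment of at least 10, 14 and 15 genes had one, against 9.83% and 18.5%. An FDR of at most 1% left 10 of all peaks and 0 genes at 1 kb, 10 kb and 50 kb, as the FDR does not fall with the score. The distance of 100 bp (0.1 kb), which gave 16 genes, was chosen after seeing the data, as were the shared-start classes and the 200 bp around starts. The relaxed X-box occurred at 17 of the 26 start peaks, against 39.7% of the other start peaks. A best match of at least 10 within 1 kb of a start was present in 30 of the 42 genes, against 30.3% of the others. The other alternatives for distance, start, overlap and window kept the counts within 1.5 times. The depth of the control limits the fold enrichments, and weak binding below the cutoff is not listed.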
